A study of Saccharomyces cerevisiae with 10 samples.

Results

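The genes described here serve protein import into yeast mitochondria and folding in the matrix, and number 10 of the 5373 genes listed in any of 5 strains. They were picked by name and function: the matrix chaperones HSP60 (YLR259C), HSP10 (YOR020C) and SSC1 (YJR045C), the outer membrane TOM components TOM20 (YGR082W), TOM70 (YNL121C) and TOM40 (YMR203W), and the inner membrane TIM23 components TIM23 (YNR017W), TIM50 (YPL063W), TIM44 (YIL022W) and MGR2 (YPL098C). All 10 were listed in all 5 strains and belonged to the 4964 genes that were, which served as the comparison set. Their reading frames ran from 106 sense codons in HSP10 and 113 in MGR2 to 617 in TOM70 and 654 in SSC1.

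Nearly all mitochondrial proteins are encoded in the nucleus, made on cytosolic ribosomes and imported. Receptors of the TOM complex bind the precursor, the Tom40 channel passes it through the outer membrane, and the TIM23 complex takes precursors with a presequence across the inner membrane. Matrix Hsp70, recruited to the channel by Tim44, pulls the chain in, and the Hsp60 chamber with its Hsp10 lid helps it to fold.

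The study changed tRNA supply in strain S288C and measured ribosome footprints (fragments of mRNA shielded by a translating ribosome) and mRNA in each strain, to ask whether tRNA levels alter translation. WT was unmodified. ACA-K had lost all but 1 genomic copy of the threonine tRNA that reads ACA, so tT(UGU)G2, tT(UGU)H and tT(UGU)P gave way to markers for nourseothricin, kanamycin and hygromycin B. WT-URA was wild type with pRS426, a URA-marked 2-micron plasmid. AGG-OE carried on that plasmid the arginine tRNA gene tR(CCU)J, whose product reads AGG, and AGG-QC carried on it the tR(UCU)B gene with its anticodon changed to CCU. WT and ACA-K held no plasmid, so the plasmid, the selection for it and any difference in library preparation between these 2 strains and the other 3 cannot be told apart. Each strain had 1 footprint library and 1 mRNA library and no replicate, so no test between strains was possible, and the differences below compare libraries.

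Footprints summed to between 6011287 in AGG-QC and 29706058 in WT. The 10 genes took 0.638% to 0.808% of the footprints and 0.333% to 0.430% of the mRNA signal, with the ACA-K library highest in both. Each member had between 504 and 67425 footprints. The 3 plasmid strains had 13.8% to 15.7% of all footprints in the first 20 codons, against 6.34% in WT and 6.46% in ACA-K. URA3, the selectable marker, was listed in the 3 plasmid strains only.

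Levels are given per codon after scaling each library's total over the 4964 genes to 1000000 (normalised values), which allows genes of different length to be compared. They are shares of a library, so a change per cell cannot be told apart from a change in everything else. Differences are given as log2 ratios of these shares, with a 95% interval for footprints that covers counting error only. A difference of at least 1.5-fold in either direction (0.58 on the log2 scale) is called, and the share of all 4964 genes past that fold stands beside each count.

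The matrix chaperones had the most footprints per codon of the 10. HSP60, the folding chamber, had 3.86 normalised footprints per codon in WT, 5.38 in ACA-K, 3.73 in WT-URA, 3.68 with AGG-OE and 4.32 with AGG-QC. HSP10, its lid, had 4.14, 5.22, 4.97, 4.36 and 5.01 normalised footprints per codon in the same order of strains. SSC1, the matrix Hsp70 and import motor, had 3.49, 4.61, 3.44, 3.72 and 4.10. ACA-K was the highest strain for all 3 with the stop codon counted, and AGG-QC was second highest for HSP60 and SSC1. The stop codon held 9.73% of HSP10 footprints in ACA-K, 2.31% in WT-URA and 0.695% in AGG-QC. With it left out, the HSP10 level was lower in ACA-K than in WT-URA and AGG-QC. For HSP10 the values of AGG-QC and WT-URA differed by less than the counting error. These levels put the 3 genes between the 96.1th and the 97.9th percentile of all genes in every strain. No other member was above the 89.4th percentile.

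At the mRNA level the 3 chaperones stood apart from each other. HSP10 mRNA was 4.20 normalised units per codon in WT, 4.44 in ACA-K, 4.55 in WT-URA, 4.39 with AGG-OE and 4.92 with AGG-QC. HSP60 mRNA was 1.90, 2.48, 1.66, 1.85 and 2.18 normalised units per codon. SSC1 mRNA was 1.12, 1.46, 0.867, 0.903 and 1.15. The 3 genes thus had footprint levels close to each other on unequal mRNA levels, and their footprint-to-mRNA ratios (footprint share over mRNA share) differed accordingly. The ratio of SSC1 was 3.11 in WT, 3.15 in ACA-K, 3.97 in WT-URA, 4.12 with AGG-OE and 3.57 with AGG-QC, at or above the 99.5th percentile in each strain. That of HSP60 was 2.04, 2.17, 2.25, 1.98 and 1.98, and that of HSP10 was 0.985, 1.18, 1.09, 0.993 and 1.02. SSC1 had the highest ratio of the 10 genes in every strain. SSC1 has a close paralog, ECM10, and only uniquely mapped footprints were kept, so stretches that both genes share were not counted for either.

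Hsp60 and Hsp10 work as a pair, and their levels can be set against each other. The footprint level per codon of HSP60 divided by that of HSP10 was 0.932 in WT, 1.03 in ACA-K, 0.750 in WT-URA, 0.844 with AGG-OE and 0.861 with AGG-QC. The same quotient of mRNA levels was 0.451, 0.559, 0.364, 0.423 and 0.444. Both quotients were highest in ACA-K and lowest in WT-URA.

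**Figure D1:**
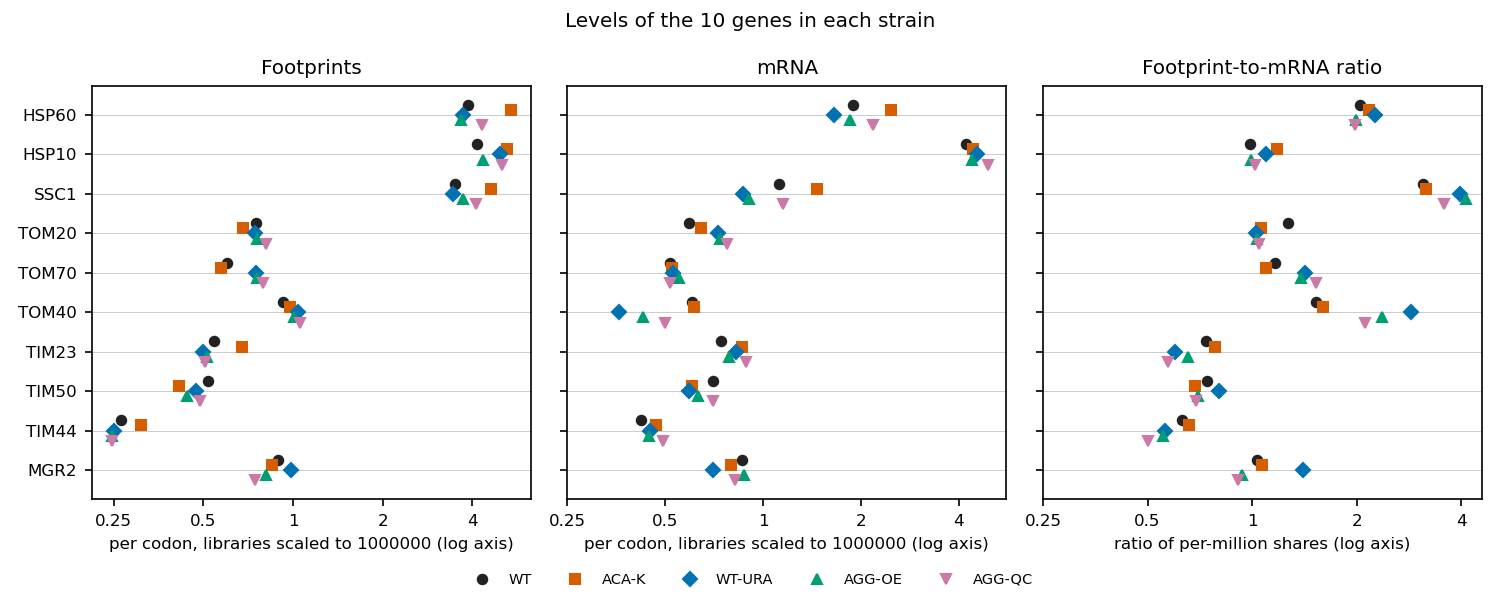
Normalised footprints per codon, normalised mRNA signal per codon and their ratio for the 10 genes, each on a log axis, with 1 point per strain and library. The 3 matrix chaperones stand at 3.44 to 5.38 normalised footprints per codon, above the other 7 genes, and the WT-URA mRNA level of TOM40 lies at 0.361, left of the other strains.

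The TOM genes lay lower. TOM20, a receptor for presequences, had 0.751 normalised footprints per codon in WT, 0.681 in ACA-K, 0.746 in WT-URA, 0.757 with AGG-OE and 0.811 with AGG-QC. TOM70, the receptor for many carrier proteins and a docking site for cytosolic chaperones, had 0.601, 0.575, 0.752, 0.758 and 0.791. For TOM70 the 3 plasmid strains lay above WT and ACA-K, as they did for 61.9% of all genes, whereas its mRNA level stayed between 0.516 and 0.550 in all 5. TOM40, the channel, had 0.925, 0.980, 1.04, 1.01 and 1.06 normalised footprints per codon, the highest of the 3 TOM genes in each strain.

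TOM40 and SSC1 had the widest ranges of mRNA over the 5 strains, 1.70-fold and 1.69-fold, followed by HSP60, and TOM70 had the narrowest at 1.06-fold. The TOM40 mRNA level was 0.606 normalised units per codon in WT, 0.614 in ACA-K, 0.361 in WT-URA, 0.427 with AGG-OE and 0.500 with AGG-QC, so the 3 plasmid strains lay below the other 2, as in 16.9% of all genes. Its footprint-to-mRNA ratio was 1.53, 1.59, 2.87, 2.36 and 2.12 in the same order, with the 3 plasmid strains above, as in 28.5% of all genes. Its footprint level spanned 1.14-fold, from 0.925 to 1.06, the narrowest range of the 10.

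Among the genes of the TIM23 complex, TIM44 and TIM50 had the lowest and second lowest footprint levels of the 10 in each strain. TIM23, the core of the channel, had 0.545 normalised footprints per codon in WT, 0.675 in ACA-K, 0.497 in WT-URA, 0.513 with AGG-OE and 0.508 with AGG-QC. TIM50, the receptor of the complex in the intermembrane space, had 0.519, 0.415, 0.474, 0.440 and 0.486. ACA-K was the highest strain for TIM23 and the lowest for TIM50. TIM44, which tethers the Hsp70 motor to the channel, had 0.265, 0.308, 0.251, 0.246 and 0.246. MGR2, a small subunit that guards lateral release of precursors into the membrane, had 0.892, 0.849, 0.983, 0.815 and 0.748.

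Per codon, footprints of TIM50 divided by those of TIM23 gave 0.952 in WT, 0.616 in ACA-K, 0.953 in WT-URA, 0.858 with AGG-OE and 0.957 with AGG-QC. ACA-K was the low strain. The quotient of TIM44 to TIM23 footprints ranged from 0.457 in ACA-K to 0.505 in WT-URA. That of MGR2 to TIM23 was 1.64, 1.26, 1.98, 1.59 and 1.47 over the whole gene. With the first 20 codons and the stop codon left out it was 1.62, 1.23, 1.52, 1.26 and 1.14, so the highest strain became WT in place of WT-URA and the lowest AGG-QC in place of ACA-K.

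Against WT, ACA-K had more footprints on the chaperones and fewer on TIM50, but 0 of the 10 genes reached 1.5-fold, where 4.13% of all genes did. HSP60 footprints were higher by 0.48 on the log2 scale (95% counting interval 0.46 to 0.50), SSC1 footprints by 0.40 (0.39 to 0.42) and HSP10 footprints by 0.34 (0.30 to 0.37). TIM23 had a log2 difference of 0.31 (0.24 to 0.38) and TIM44 of 0.22 (0.15 to 0.29). These 5 intervals all lay above 0. The lowest were TIM50 at -0.32 (-0.38 to -0.27) and TOM20 at -0.14 (-0.21 to -0.07). TOM40 lay at 0.08 (0.04 to 0.12), TOM70 at -0.06 (-0.11 to -0.02) and MGR2 at -0.07 (-0.15 to 0.01). Only the MGR2 interval included 0. The median of the 10 was 0.15, beside -0.03 over all genes, and 6 of 10 lay above the latter. HSP60 stood at the 97.5th percentile of all genes in this difference, yet below the fold used for a call.

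The mRNA of HSP60 and SSC1 differed between ACA-K and WT by nearly as much as their footprints, by 0.39 and 0.38 on the log2 scale. HSP10 mRNA differed by 0.08 and TIM50 mRNA by -0.21. In mRNA, too, 0 of the 10 genes reached 1.5-fold, beside 3.53% of all genes. The footprint-to-mRNA ratio therefore moved little for HSP60 (0.09), SSC1 (0.02), TIM23 (0.09) and TIM50 (-0.11). Its most positive member was HSP10 at 0.26 and its most negative TOM20 at -0.26, and 0 of 10 passed 1.5-fold, beside 5.26% of all genes.

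The HSP10 difference was partly a matter of where its footprints lay. In ACA-K 1171 of 12030 HSP10 footprints, 9.73%, were assigned to the stop codon, against 1.89% in WT and 0.695% to 2.31% in the 3 plasmid strains. With the stop codon left out, the log2 difference of HSP10 footprints was 0.22 and that of its ratio 0.14. TOM20 also had more of its footprints at the stop codon in ACA-K, 5.09% against 1.26% in WT. Over genes with at least 100 footprints, the median share at the stop codon was 0.157% in ACA-K and 0.0574% in WT. The other 8 genes had 0.0233% to 2.43% of their footprints there in ACA-K and 0.0283% to 2.43% in WT. MGR2 had 1.49% in ACA-K against 0.470% in WT, and TOM70 0.260% against 0.0639%. Of these 8, only TIM23, with 2.43% in both, and TIM50, with 0.0233% against 0.0685%, were not higher in ACA-K.

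AGG-OE and AGG-QC were both set against the WT-URA libraries, so their differences share that control. In AGG-OE, 0 of the 10 genes passed 1.5-fold in footprints (6.89% of all genes), in mRNA (5.04%) or in the ratio (4.17%). Footprint differences ran from -0.27 for MGR2 (-0.41 to -0.13) and -0.19 for HSP10 (-0.25 to -0.13) to 0.11 for SSC1 (0.08 to 0.14). The intervals of 6 genes, TOM20, TOM70, TOM40, TIM23, TIM44 and HSP60, included 0. HSP60 footprints differed by -0.02 and HSP60 mRNA by 0.16.

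In AGG-QC, 0 of the 10 genes passed 1.5-fold in footprints (4.55% of all genes) or in mRNA (5.64%). SSC1 and HSP60 footprints lay at 0.25 (0.22 to 0.28) and 0.21 (0.18 to 0.24), and MGR2 footprints at -0.39 (-0.55 to -0.24). The mRNA differences were 0.47 for TOM40, 0.41 for SSC1 and 0.40 for HSP60. All 10 genes lay above the all-gene median in mRNA, with a median of 0.18 beside -0.04. They did so in AGG-OE too, against the same WT-URA library, with a median of 0.06 beside -0.10. In the footprint-to-mRNA ratio 1 gene, MGR2, was lower by more than 1.5-fold, where 2.05% of all genes were lower and 5.38% higher. After the ratios were centred on the all-gene median these shares became 3.44% and 3.04%, and MGR2 was still past the fold. With the first 100 codons left out and a pseudo-count of 1 per codon, MGR2 lay at -0.57, short of it. TOM40 had a ratio difference of -0.44, and the median of the 10 was -0.16 beside 0.10 over all genes.

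MGR2 carried the lowest ratio difference in both arginine tRNA strains. Its ratio was 1.03 in WT, 1.07 in ACA-K, 1.40 in WT-URA, 0.935 with AGG-OE and 0.912 with AGG-QC. WT-URA was the high strain over the whole gene, and AGG-OE and AGG-QC lay below the other 3 strains. With the first 20 codons and the stop codon left out the ratio was 0.869, 0.903, 0.964, 0.651 and 0.620. The order of the strains was then the same. Against WT-URA the log2 difference was -0.58 in AGG-OE, just short of the fold, and -0.62 in AGG-QC. Both numbers rest on the same WT-URA libraries, in which MGR2 had 932 footprints and its lowest mRNA level of the 5 strains, 0.703 normalised units per codon.

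**Figure D2:**
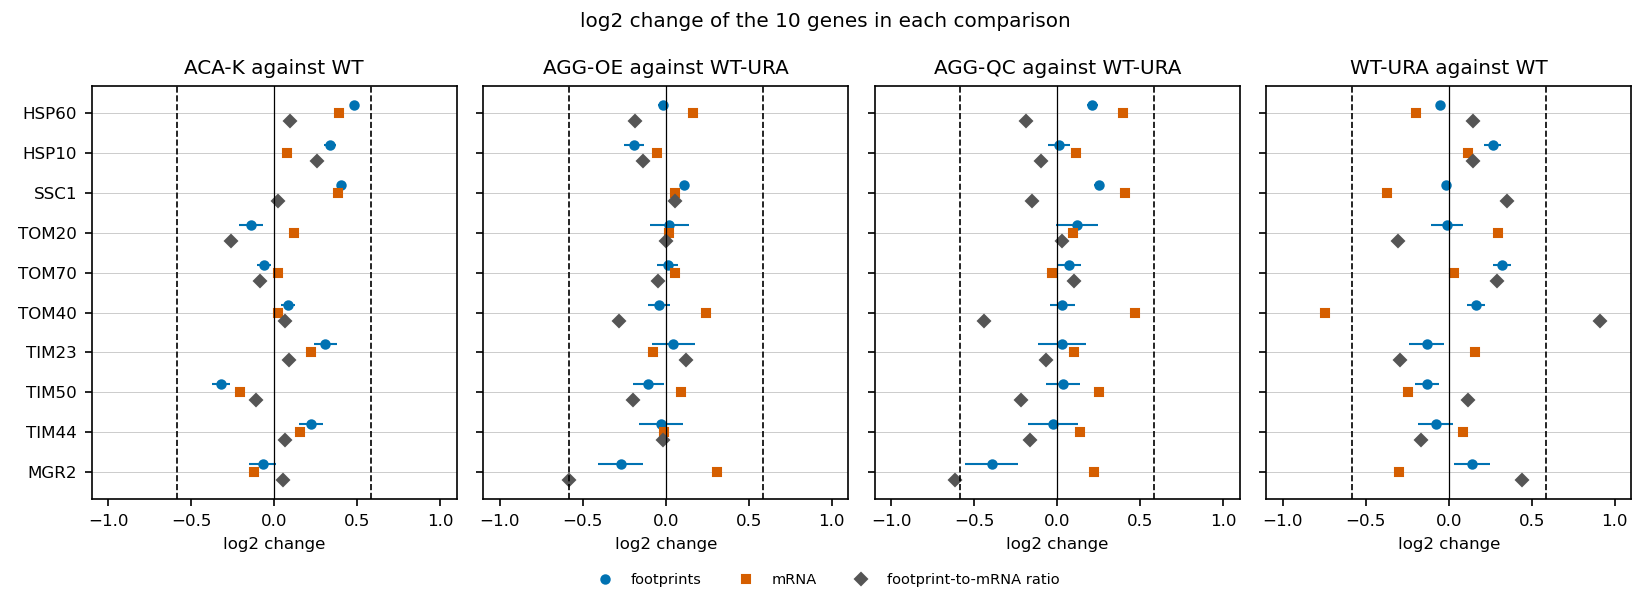
log2 change of the 10 genes in footprints, mRNA and the footprint-to-mRNA ratio for each of the 4 comparisons, with dashed lines at 1.5-fold and bars for the 95% counting interval of footprints. Past a dashed line lie only the MGR2 ratio in AGG-QC (-0.62) and, in WT-URA against WT, TOM40 mRNA (-0.75) and the TOM40 ratio (0.91).

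The 2 wild types differed widely. In WT-URA against WT the median gene was shifted by 0.38 in footprints and by 0.30 in mRNA on the log2 scale, and 44.3% of genes passed 1.5-fold in footprints. Of all genes 35.3% were higher and 8.92% lower, which became 16.6% and 16.9% once values were centred on the median gene. The 10 genes all lay below that shift, as 0 of 10 were above the all-gene median in footprints and 0 of 10 in mRNA. Their footprint differences ran from -0.13 for TIM23 and TIM50 to 0.32 for TOM70, with a median of -0.01, and 0 of 10 passed the fold before or after centring.

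The 3 plasmid strains were also set against WT and ACA-K together. In footprints the plasmid strains were all above in 2 of 10 genes (TOM70 and TOM40), beside 61.9% of all genes, and all below in 2 (TIM23 and TIM44), beside 16.2%. In mRNA they were all above in 1 (TOM20), beside 55%, and all below in 1 (TOM40), beside 16.9%. In the ratio they were above for SSC1, TOM70 and TOM40, 3 of 10 beside 28.5%, and below for TOM20, TIM23 and TIM44, 3 of 10 beside 15.3%. In footprints and mRNA most genes of the genome fell on one side or the other, and most of these 10 did not. These shares were not centred, so the shift of the median gene between WT-URA and WT, 0.38 in footprints and 0.30 in mRNA, enters the split. It was not counted after centring. Relative to the median gene, all 10 lay lower in WT-URA than in WT in both measures, so the split depends on the scaling.

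In WT-URA against WT, TOM40 mRNA alone of the 10 was lower past 1.5-fold, at -0.75 or 0.596-fold, where 7.43% of all genes were lower and 28.6% higher. Relative to the median gene the TOM40 mRNA difference was -1.05, and SSC1 at -0.68 and MGR2 at -0.60 then passed as well, 3 of 10 beside 15.2% of all genes lower and 14.2% higher. The ratio of TOM40 was 1.88-fold higher in WT-URA than in WT (0.91 on the log2 scale), the only 1 of the 10 past the fold, beside 8.4% of all genes higher and 3.04% lower. Relative to the median gene it was 0.86. TOM40 footprints differed by 0.16 (0.11 to 0.22) in the same comparison. With the first 20 codons and the stop codon left out they differed by 0.21. That setting changes footprints only and leaves the mRNA difference as it was.

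Footprints were assigned to the codon being decoded, so each gene has a profile along its codons. The density of footprints in the first 20 codons was lower in the 3 chaperones than in the median gene in each strain. The same held for TOM20, TOM70, TOM40 and TIM50, whereas TIM23, TIM44 and MGR2 lay above the median gene in WT and ACA-K. In HSP60 the mean density of the first 20 codons, relative to the gene mean, was 0.407 in WT and 0.291 in ACA-K. It was 1.39 in WT-URA, 1.62 with AGG-OE and 1.22 with AGG-QC. The median gene had 0.948, 0.979, 3.32, 2.76 and 2.66. HSP60 thus lay below the median gene in each strain, and it showed the same split between plasmid and plasmid-free strains as the median gene. SSC1 had 0.541, 0.510, 1.55, 1.52 and 1.63, and HSP10 had 0.503, 0.437, 0.937, 1.06 and 0.859. As a share of the gene's footprints these codons held more in the short HSP10 than in the median gene in each strain, for example 9.49% against 4.55% in WT. In codons 21 to 100, HSP60 had 1.62, 1.38, 1.69, 1.69 and 1.75 times its gene mean, above the median gene at 1.28, 1.28, 1.30, 1.26 and 1.26.

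MGR2, one of the shortest genes, had 20.9% of its footprints in the first 20 codons in WT and 20.4% in ACA-K. The share was 41.9% in WT-URA, 40.7% with AGG-OE and 41.0% with AGG-QC. Past codon 20, its footprint difference between WT-URA and WT was -0.15 on the log2 scale in place of 0.14.

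Past codon 20, single codons led some of the profiles. In TOM70 codon 58 had the most footprints in all 5 strains. It held 2.62% of the footprints past codon 20 in WT, 6.05% in ACA-K, 2.96% in WT-URA, 3.87% with AGG-OE and 2.82% with AGG-QC, which was 15.6, 36.1, 17.7, 23.1 and 16.9 times the mean of those codons. ACA-K was the high strain, and the other 4 lay between 2.62% and 3.87%.

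In TIM44 codon 67 led in all 5 strains, with 2.48% of the footprints past codon 20 in WT, 5.02% in ACA-K, 5.21% in WT-URA, 4.95% with AGG-OE and 3.62% with AGG-QC. The AGG-QC share rested on 20 footprints and the WT-URA share on 41. A codon that led in all 5 strains was thus found in 2 of the 10 genes, beside 3.77% of the 4107 genes with at least 100 footprints past codon 20 in every strain. Between ACA-K and WT the share at the common codon was 2.31-fold higher in TOM70 and 2.03-fold higher in TIM44. The median over the 1053 genes that had a common leading codon in these strains was 1.64-fold.

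**Figure D3:**
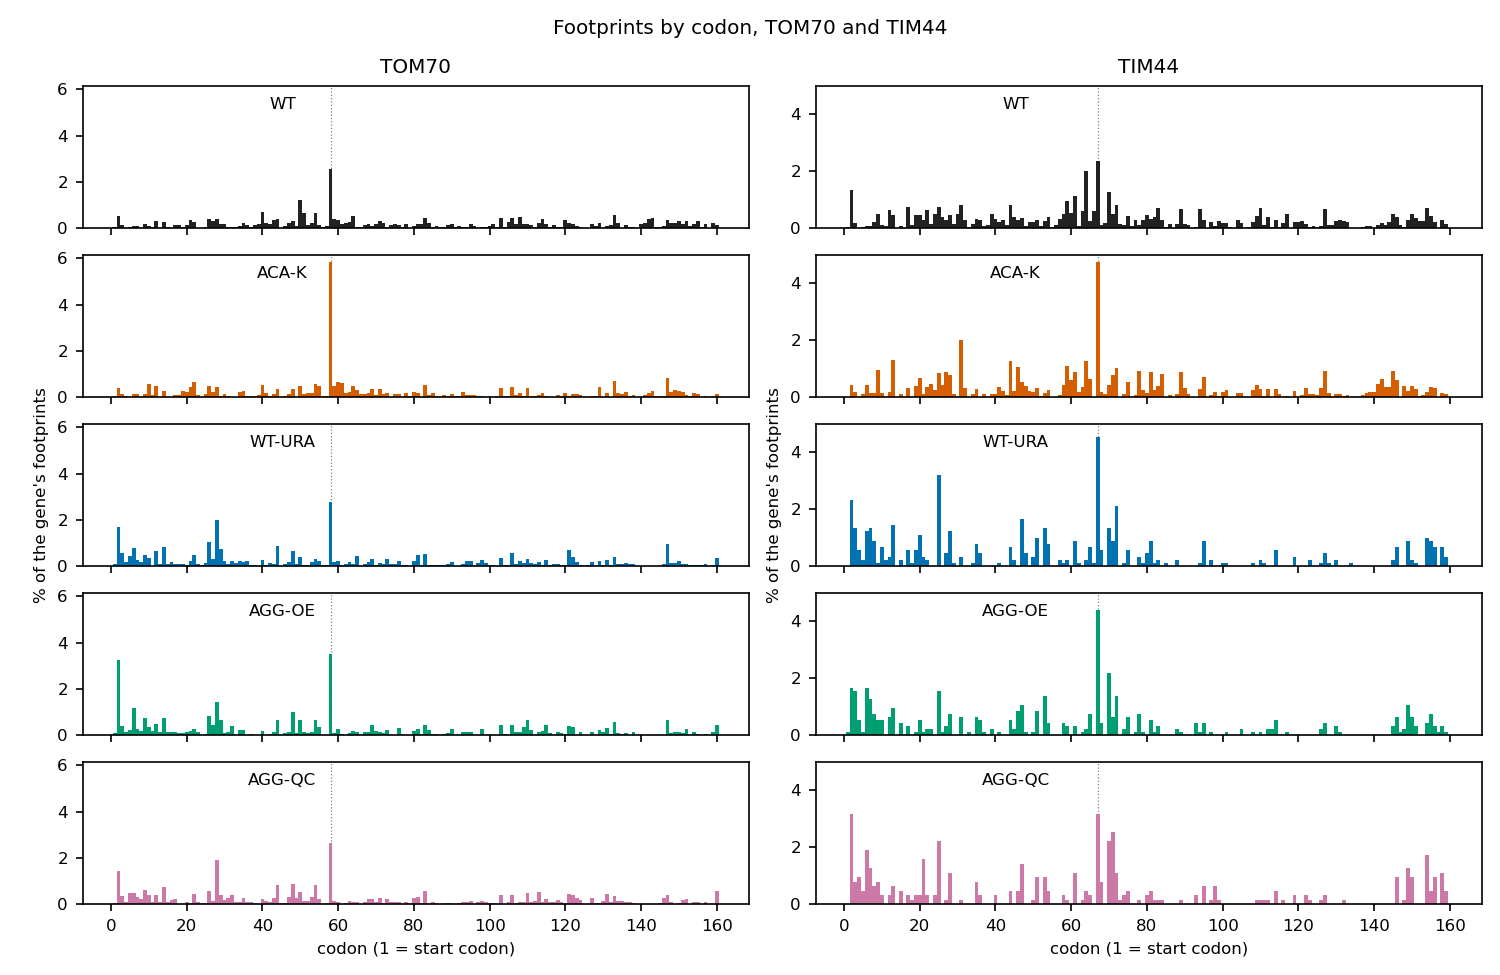
Percent of each gene's footprints at codons 1 to 160 of TOM70 and TIM44, with 1 row per strain and a dotted line at codon 58 of TOM70 and codon 67 of TIM44. The bar at the dotted line is the highest past codon 20 in all 5 strains of both genes, and in TOM70 it is highest in ACA-K.

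The leading codon was often that of 1 strain alone. The WT codon led in no other strain in 7 of the 10 genes, beside 60.0% of the 4107 genes, and the ACA-K codon in 5 of 10, beside 63.5%. The counts were 3 of 10 for WT-URA (41.2%), 2 of 10 for AGG-OE (41.0%) and 4 of 10 for AGG-QC (44.9%).

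The 5 genes in which ACA-K led alone were HSP60, SSC1, TOM40, HSP10 and TIM50. In HSP60 codon 192 held 2.98% of the footprints past codon 20 in ACA-K, but 0.798% in WT, 0.900% in WT-URA, 0.930% with AGG-OE and 0.689% with AGG-QC. SSC1 codon 66 held 3.90% in ACA-K, 0.453% in WT, 1.31% in WT-URA, 1.18% with AGG-OE and 0.738% with AGG-QC. TOM40 codon 60 held 4.57%, 1.26%, 0.891%, 0.913% and 0.581% in that order. The next strain was exceeded 3.21-fold at the HSP60 codon, 2.98-fold at the SSC1 codon and 3.63-fold at the TOM40 codon. HSP10 codon 54 held 11.1% in ACA-K, 2.64% in WT, 2.42% in WT-URA, 3.41% with AGG-OE and 2.16% with AGG-QC. TIM50 codon 376 held 2.62% in ACA-K and 0.571% in WT, and between 2 and 7 footprints in each plasmid strain. These codons were chosen because they led in ACA-K, so their high share there is part of the choice. Over the 4107 genes, the median share at the leading codon of ACA-K was 4.57% in ACA-K and 1.55% in WT.

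ACA-K profiles were also more peaked over all genes. The median gene had 4.57% of its footprints past codon 20 at its leading codon in ACA-K, against 2.81% in WT, 3.70% in WT-URA, 3.91% with AGG-OE and 3.74% with AGG-QC. Among the chaperones, SSC1 had a different leading codon in each of the 5 strains. SSC1 codon 153, which led in WT with 1.38%, held 1.91% in ACA-K, 1.65% in WT-URA, 1.42% with AGG-OE and 1.51% with AGG-QC. The ACA-K share was above that of WT, while the counting intervals of WT-URA, AGG-OE and AGG-QC overlapped that of WT, that of WT-URA only just.

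The codon that led in WT was followed through the other strains in all 10 genes. Its share was highest in WT in 5 of them (HSP60, TOM40, TIM23, TIM50 and MGR2) and lowest in WT in 4 (SSC1, TOM20, TOM70 and TIM44). A high share in WT is part of how these codons were chosen. The same was not counted over all genes, so whether these numbers are usual is not known. In HSP10, codon 73 held 3.94% to 4.33% in all 5 strains, with overlapping counting intervals. The 3 plasmid strains lay below both WT and ACA-K in 4 genes (HSP60, TOM40, TIM50 and MGR2). A place below WT is favoured by the choice of codon. This count, too, was not made over all genes, and nothing is read from it.

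TIM50 codon 139 held 3.05% of the footprints past codon 20 in WT, 1.37% in ACA-K, 0.467% in WT-URA, 0.397% with AGG-OE and 0.634% with AGG-QC, with 7 or 8 footprints in each plasmid strain. HSP60 codon 394 held 1.16% in WT, 0.576% in ACA-K, 0.112% in WT-URA, 0.178% with AGG-OE and 0.107% with AGG-QC. TOM40 codon 295 held 2.02% in WT, 2.00% in ACA-K, 1.65% in WT-URA, 1.26% with AGG-OE and 1.52% with AGG-QC, and the counting intervals of WT-URA and AGG-QC overlapped those of WT and ACA-K. TIM23 codon 130 had its lowest share in ACA-K, 2.15% against 3.91% in WT. MGR2 codon 48 held 10.6% in WT, 6.30% in ACA-K, 3.33% in WT-URA, 5.48% with AGG-OE and 4.41% with AGG-QC. In the other 4 strains codon 23 led in MGR2, with 6.97% in ACA-K, 8.15% in WT-URA, 8.32% with AGG-OE and 11.2% with AGG-QC, and 4.61% in WT.

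TIM23 codon 99 led in ACA-K (4.58%), WT-URA (4.41%) and AGG-OE (5.86%), but not in WT (1.65%) or AGG-QC (2.67%, 15 footprints). In TOM20 the lead passed among codons 97, 133 and 171, and the top codon was the same in TOM20 of WT and AGG-QC, codon 133, with 3.55% and 6.19%. Codon 171 of TOM20 led in ACA-K (7.41%) and AGG-OE (5.55%, 58 footprints), with overlapping counting intervals. It held 2.67% in WT, 2.80% in WT-URA and 3.10% with AGG-QC.

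The strain pairs differed in how often the leading codon was shared. ACA-K and WT shared it in 2 of the 10 genes, beside 25.6% of all eligible genes, and WT-URA and WT in 2 of 10, beside 16.6%. AGG-OE and WT-URA shared it in 6 of 10, beside 39.5%, AGG-QC and WT-URA in 4 of 10, beside 37.7%, and AGG-QC and AGG-OE in 4 of 10, beside 38.5%. These pairs reuse the same libraries. Across codons past 20, Pearson's r between the profiles of WT-URA and AGG-OE ranged over the 10 genes from 0.75 to 0.95, and between WT and ACA-K from 0.61 to 0.83. The corresponding medians over all genes were 0.63 and 0.51, and r between WT and WT-URA ranged from 0.47 to 0.76, beside 0.41. Codons of 1 gene share its libraries and are not independent, and r also depends on the number of footprints, so these values are descriptions.

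**Figure D4:**
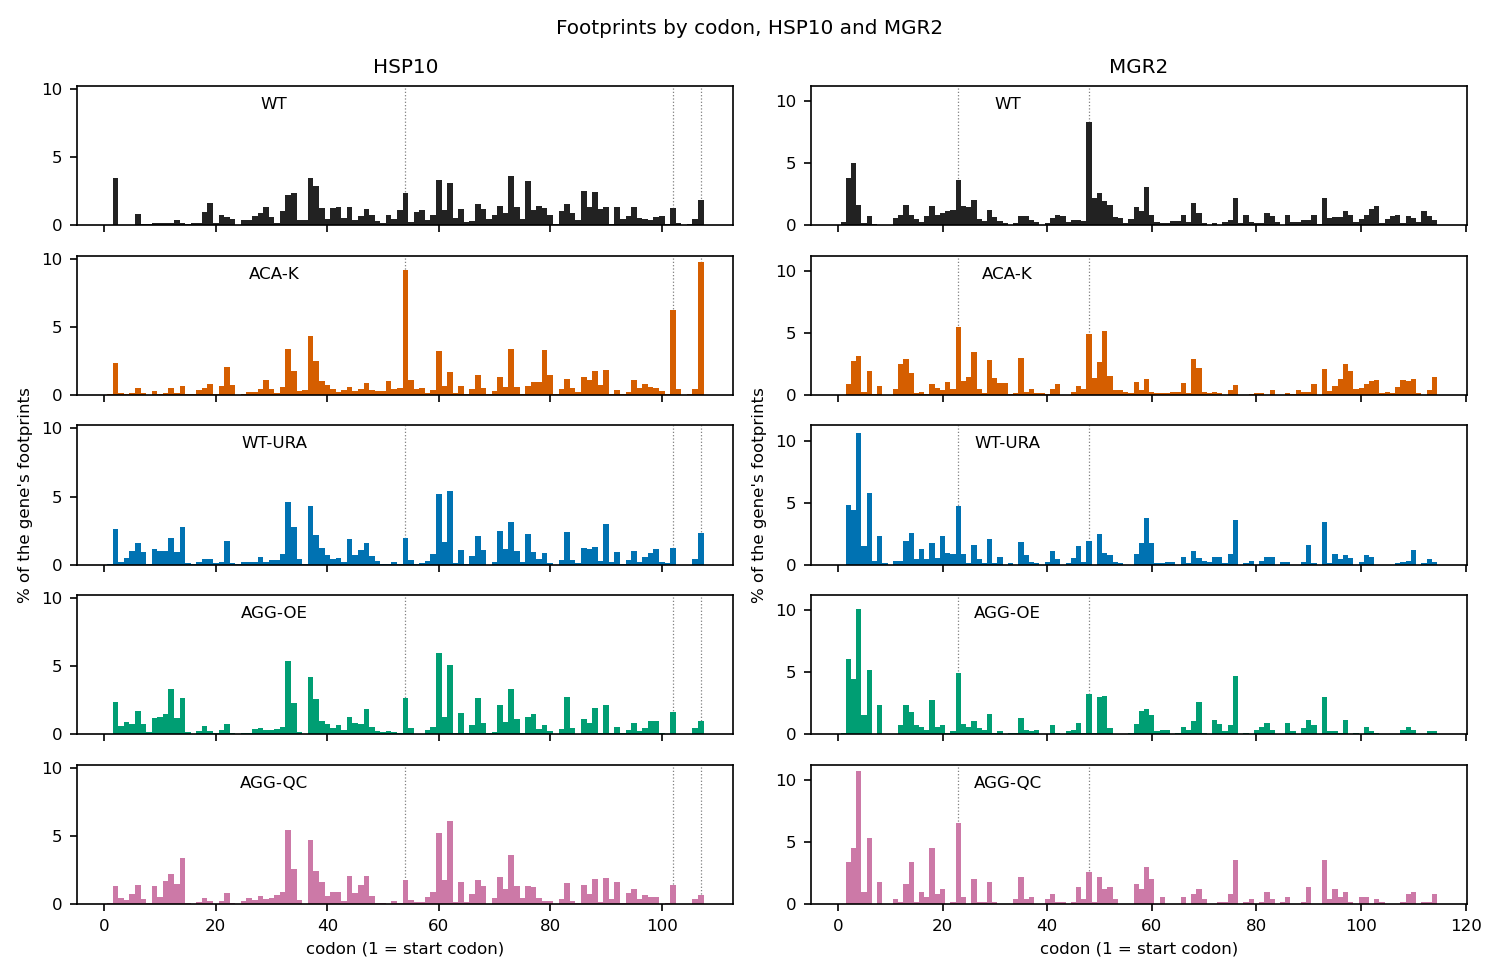
Percent of each gene's footprints at every codon of HSP10 and MGR2, with 1 row per strain and dotted lines at codons 54, 102 and 107 (the stop codon) of HSP10 and codons 23 and 48 of MGR2. The ACA-K row of HSP10 has its 3 highest bars at the dotted lines, with 9.73% at the stop codon, and the MGR2 rows of the plasmid strains are highest before codon 20.

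HSP10 also had a peak near its end. Codon 102 held 6.23% of HSP10 footprints in ACA-K (750 footprints), 1.25% in WT, 1.24% in WT-URA, 1.65% with AGG-OE and 1.42% with AGG-QC. It was the leading codon past codon 100 in all 5 strains, in a stretch of only 6 sense codons. Counting from codon 101 on, the HSP10 log2 difference between ACA-K and WT was 2.14 in footprints, against 0.34 over the whole gene. That figure describes those few codons and not the gene.

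A wider list of 40 genes (other subunits of the TOM, TIM23, TIM22, SAM and MIM complexes, the import motor, the intermembrane space carriers, processing peptidases and other matrix chaperones, all listed in all 5 strains) was set beside the 10. In ACA-K, 0 of 40 passed 1.5-fold in footprints, 1 was lower in mRNA (2.82% of all genes, 1.73% after median centring) and 1 higher in the ratio (3.51%). PAM18, the J-protein that stimulates Ssc1, had an mRNA difference of -0.71 with footprints at -0.15. TOM5, a small TOM subunit, had a ratio difference of 0.72, from footprints at 0.48 and mRNA at -0.24.

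In AGG-OE, 1 of 40 was lower in footprints (5.04% of all genes, 3.14% after median centring), 2 were lower in mRNA (3.99%, 2.22% after centring) and 0 passed in the ratio. ZIM17, which keeps matrix Hsp70s soluble, had an mRNA difference of -0.67 with footprints at -0.34. In AGG-QC, HSP78, the matrix disaggregase, was the 1 of 40 higher in footprints (3.16% of all genes, 2.32% after centring), at 0.78 with mRNA at 0.36. In mRNA 1 was higher, JAC1 at 0.75 (3.16% of all genes), and 2 were lower (2.48%), and in the ratio 1 was higher (5.38%) and 3 were lower (2.05%, 3.44% after centring). OCT1, a matrix peptidase, had a ratio difference of 0.95, from mRNA at -0.67 and footprints at 0.28. The ratio was lower past the fold for MIM1 (-0.67), an outer membrane insertase, for TOM7 (-0.61), a small TOM subunit, and for JAC1 (-0.59), a J-protein of iron-sulfur cluster assembly. JAC1 and OCT1 rested on 176 and 223 footprints in AGG-QC.

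Where the 10 genes lay below the shift between WT and WT-URA, the 40 lay near it. In WT-URA against WT, 15 of 40 were higher past 1.5-fold in footprints and 9 in mRNA, beside 35.3% and 28.6% of all genes, and their medians were 0.46 and 0.37, beside 0.38 and 0.30 over all genes. Among those with at least 100 footprints in both strains, TOM5 had the highest footprint difference, 1.01, followed by HSP78 at 0.95 and MDM10, which acts in outer membrane protein assembly, at 0.92. In mRNA, HSP78 differed by 0.95, IMP1, an inner membrane peptidase, by 0.86 and TIM18, a TIM22 subunit, by 0.77. In the ratio 2 were higher, TOM5 and JAC1, each at 0.75, and 1 was lower, beside 8.4% and 3.04% of all genes. The difference between the 10 and the 40 was not tested.

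The genes whose footprint pattern over the 5 strains came nearest to the mean of HSP60, HSP10 and SSC1 were ADE2, SEH1, DUG1, FSH1 and APL6. Likeness was measured over 5 strains as the Euclidean distance between centred log2 footprint shares, and was 0.0684 for ADE2 and 0.125 for APL6. The chaperone mean was -0.15 in WT, 0.26 in ACA-K, -0.08 in WT-URA, -0.11 with AGG-OE and 0.08 with AGG-QC. ADE2, an enzyme of purine synthesis, had -0.10, 0.23, -0.12, -0.11 and 0.10 in that order. With 5 libraries, near patterns arise among many genes, and nothing further is read from this likeness.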

How the data were processed

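Ribosome footprints and oligo-dT selected mRNA were sequenced from 5 strains, 1 library of each kind per strain (10 samples). Per the study's methods, the authors aligned footprints to SGD assembly R63, kept uniquely mapped reads of footprint length with few mismatches, and assigned each to the codon being decoded; the submitters' processing notes name Bowtie 1.0.0. They dropped genes without an AUG start, with internal stops or with sparse mRNA coverage. The deposited footprint values are counts per codon and per gene, used as deposited. The deposited mRNA value is a signal summed over each gene; its unit is not stated in the sources used here, so it has no counting interval. The gene length deposited by the authors is in codons.

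Genes listed in all 5 strains (4964) were used, and each value was divided by its library's total over them. Ratios of footprint shares have exact (Clopper-Pearson) conditional intervals at 95%. With 1 library per group no test was made, and a fold of 1.5 describes size. The functions were tested on simulated data. Symbols came from RefSeq annotation of assembly R64 (4913 of 4964 matched), from which no coordinates are given. Tables were computed with pandas 2.3.3, numpy 2.4.6 and scipy 1.17.1 in Python 3.11.15, and figures drawn with matplotlib 3.10.9.

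The members, the list of 40 and the rules were chosen with earlier results of these data known. Named are all 10 members, up to 3 largest rises and falls past 1.5-fold in the list of 40 for each comparison and measure with at least 100 footprints in both strains, URA3, and the 5 genes nearest to the chaperone mean. Alternatives were other totals, median centring, a footprint minimum, a 2-fold threshold and leaving out codons.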

Additional observations from a re-analysis of the deposited data

How the results depend on the processing

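Of the 12 counts of members past 1.5-fold, several differed under an alternative. With the first 100 codons left out, with or without a pseudo-count of 1 per codon, footprints and the ratio of ACA-K against WT each had 1 member past the fold (HSP10), footprints and the ratio of AGG-OE against WT-URA each had 1 (MGR2), footprints of WT-URA against WT had 1 (MGR2) and its ratio had 2 (TOM40 and MGR2). HSP10 and MGR2 keep few codons under this setting. The count of MGR2 in the AGG-QC ratio was 0 with the pseudo-count and 0 at 2-fold. With totals over all listed genes the AGG-OE ratio had 1 (MGR2). In WT-URA against WT, mRNA had 3 after median centring (SSC1, TOM40 and MGR2) and 0 at 2-fold, and the ratio had 0 at 2-fold. The number of members whose leading codon was the same in all 5 strains was 1 with the first 100 codons left out (HSP10), in place of 2. Leaving out the stop codon, alone or with the first 20 codons, was chosen after seeing the data and moved none of these counts. Leaving out both changed the order of the strains in the MGR2 to TIM23 quotient but not in the MGR2 ratio. The comparison of codons for threonine and arginine was not run, since no coding sequences were used here. No paired analysis was possible because each group has 1 sample. With 1 library per group, the spread between cultures is unknown, and differences near the fold, such as MGR2 in AGG-OE, cannot be placed on either side of it.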
